A study of Mus musculus with 18 samples.

Results

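The collagen gene family was taken as every gene whose symbol has the form Col, a type number, a and a chain number, which gave 44 of the 35642 gene symbols measured. The 18 libraries, in 6 groups of 3, came from the mouse pancreatic tumour cell lines 1151 and 2838. Both lines came from KPCY mice, which carry KrasLSL-G12D/+ and Trp53 LSL-R172H/+ with a yellow fluorescent reporter at R26, all switched on by Pdx1-Cre in cells of the pancreatic lineage. The study asked how cells differ with and without Mcu, the channel-forming protein of the mitochondrial calcium uniporter. In line 1151, cells that had lost Mcu through Cre carried either an empty vector (labelled knockout) or MCU put back (labelled re-expressing), and both were kept in puromycin. In line 2838, clones 15 and 22 were labelled wild type and carried an empty vector. Clones 17 and 42 of line 2838 were labelled CRISPR knockout, so each arm of that line rested on 2 single clones. All cells were cultured and untreated. The labels put line 1151 in batch 1 and line 2838 in batch 2, and no level was tested across lines.

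Collagens are triple-helical proteins, made in the endoplasmic reticulum with the help of proline and lysine hydroxylases and dedicated chaperones. Fibrillar collagens form the tension-bearing fibres of connective tissue and, in pancreatic cancer, are known mainly as products of fibroblasts and stellate cells. Type IV collagens form the network of the basement membrane under epithelia, types XV and XVIII lie in the zone beside it, type VII anchors it to the tissue below, and type VI forms beaded filaments. Fibril-associated collagens sit on the surface of fibrils.

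The deposited values were TPM, a transcript abundance per length that sums to the same total in every library, so read depth was unknown. Mcu RNA went against the labels in line 1151 (15.0 ± 1.63 TPM labelled knockout, 14.3 ± 1.06 TPM re-expressing; SD, n = 3) and in clone 17 (119 ± 4.79 TPM, against 75.2 ± 6.44 in clone 15, 83.3 ± 20.8 in clone 22 and 11.4 ± 0.888 in clone 42). Directions below are therefore those of libraries as labelled. Replicate 3 of wild-type clone 22 stood apart. Its longest-transcript quartile (from 4736 bases) lay a median log2 of 1.31 below the mean of the other 2 libraries of its clone, and its shortest quartile 0.09 above. The 12 collagens described most fully had transcripts at percentiles 64.3 to 98.9 of length, so results in line 2838 are given with and without that library. The 9 epithelial markers summed to between 4444.5 and 6962 TPM, from 4 keratins and Cdh1. Of the others, Esrp1 stayed below 1 TPM in every library, Epcam reached at most 1.67 TPM, Cldn4 passed 1 TPM only in 1151 knockout-labelled cells (4.95 to 7.54), and Cldn7 passed 3.42 TPM only in clone 17 (15.7 to 17.2). All 10 fibroblast markers stayed below 1 TPM in every library, with a summed level of 0.0204 to 0.619 TPM, and Lum and Postn were listed at 0 throughout. The 5 pancreatic stellate markers summed to at most 2.61 TPM and the 6 leukocyte markers to at most 6.32 TPM, where Cd68 alone passed 1 TPM.

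Of the 44 collagen genes, 12 reached 1 TPM in at least 3 of the 18 libraries, and the other 32 reached 1 TPM in none. The classes differed in how many were on. All 3 basement membrane zone genes (Col7a1, Col15a1, Col18a1) and 3 of 6 type IV genes (Col4a1, Col4a2, Col4a5) met the level. So did 2 of 11 fibrillar genes (Col5a1, Col27a1), 2 of 6 type VI genes (Col6a1, Col6a2) and 2 of 9 fibril-associated genes (Col12a1, Col16a1), but 0 of 3 short-chain network genes, 0 of 4 transmembrane genes and 0 of the 2 others. Nearest outside the level was Col8a1, a short-chain collagen, with a highest value of 0.956 TPM, and nearest inside was Col12a1, which reached 1 TPM in exactly 3 libraries, those of clone 15. Col1a2, Col6a4, Col9a1 and Col19a1 were listed at 0 in all 18 libraries. Col1a1 and Col3a1, with Col1a2 the chains of the main fibrillar collagens of connective tissue, reached at most 0.816 and 0.0249 TPM.

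Col4a1, Col4a2 and Col18a1 together made up between 81.4% and 95.7% of the summed collagen TPM of a library. The sum over all 44 genes was 280 ± 8.53 TPM in 1151 knockout-labelled cells, 252 ± 13.0 in 1151 re-expressing cells, 352 ± 39.0 in clone 15, 346 ± 140 in clone 22, 356 ± 9.90 in clone 17 and 285 ± 20.0 in clone 42 (SD, n = 3 each). The wide spread of clone 22 came with its replicate 3, at 185 TPM against 415 and 439 TPM. Fibrillar genes gave 6.49% ± 0.817 of the sum in 1151 knockout-labelled cells and 2.42% ± 0.194 in re-expressing cells, and these shares did not overlap. In these bulk samples, fewer cells that make a collagen and less of its RNA per cell cannot be told apart.

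**Figure D1:**
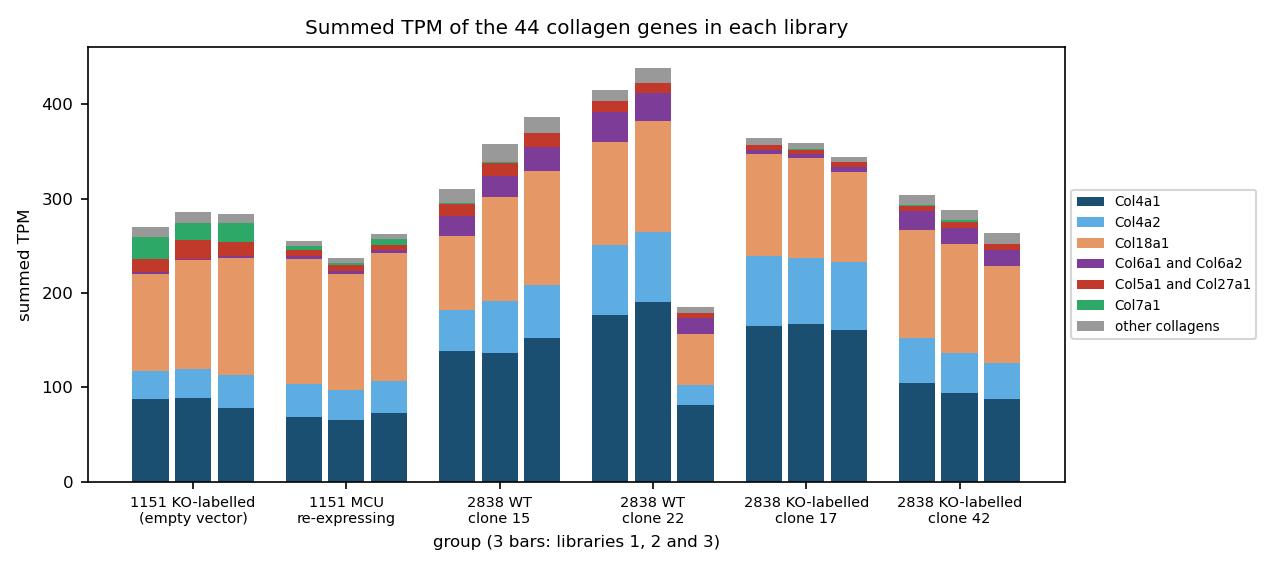
Summed TPM of the 44 collagen genes (y axis) in each of the 18 libraries (3 bars per group), stacked by gene. Col4a1, Col4a2 and Col18a1 fill 81.4% to 95.7% of every bar, and replicate 3 of wild-type clone 22 is the lowest bar at 185 TPM.

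Col4a1 and Col4a2, the chains of the commonest type IV network, lie head to head on chromosome 8. Col4a1 runs on the minus strand from 11198423 to 11312826 and Col4a2 on the plus strand from 11312805 to 11449287 (mm10, GENCODE M21), so that their first exons overlap by 22 bases. That stretch is shown because the 2 most abundant type IV genes start in it. Capitals mark the 22 shared bases, read on the plus strand at chr8:11312801-11312830 (RefSeq promoter table, GRCm38.p6).
Col4a1 and Col4a2 shared start: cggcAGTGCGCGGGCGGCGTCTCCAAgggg
The 2 levels were not equal: the ratio of Col4a1 to Col4a2 TPM lay between 1.99 and 3.90, the highest being replicate 3 of clone 22.

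In the 1151 knockout-labelled libraries Col4a1 stood at 87.3, 89.2 and 78.6 TPM, and in the re-expressing ones at 68.9, 65.4 and 72.7 TPM. In line 2838 it was 139, 137 and 152 TPM in clone 15, 176, 191 and 81.7 in clone 22, 166, 167 and 161 in clone 17, and 105, 93.9 and 88.1 in clone 42. The knockout-labelled libraries of 1151 were all above the re-expressing ones, while in 2838 clone 17 was high and clone 42 low, so that the knockout-labelled libraries spanned most of the wild-type range. Col4a2 was 29.7, 30.5 and 34.1 TPM in 1151 knockout-labelled cells and 34.7, 32.3 and 33.7 in re-expressing cells, which overlap. It was 43.0, 54.9 and 56.3 TPM in clone 15, 74.7, 74.3 and 20.9 in clone 22, 74.2, 70.1 and 71.6 in clone 17, and 48.0, 42.2 and 37.2 in clone 42. Like Col4a1, it was high in clone 17 and lower in clone 42.

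Col4a5, an X-linked type IV chain of a more specialised network, was 1.68, 1.26 and 1.65 TPM in 1151 knockout-labelled cells and 4.20, 4.42 and 3.46 in re-expressing cells. In 2838 it was 8.15, 7.95 and 8.30 TPM in clone 15, 7.92, 9.16 and 2.99 in clone 22, 4.70, 4.06 and 4.16 in clone 17, and 8.16, 7.47 and 5.71 in clone 42. In 1151 every knockout-labelled library was below every re-expressing one. In 2838 clone 17 was the low clone, although replicate 3 of clone 22 lay below it. Col4a6, its head-to-head partner with starts 1308 bases apart, never passed 0.0610 TPM. Col4a3 and Col4a4, whose starts lie 71 bases apart, reached at most 0.241 and 0.155 TPM.

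Col18a1, which carries the endostatin fragment at its C-terminal end, had group means between 93.4 and 131 TPM. Its 1151 values were 103, 115 and 124 TPM labelled knockout and 133, 123 and 136 re-expressing, overlapping by 1 library of each. In 2838 it was 78.3, 110 and 121 TPM in clone 15, 109, 117 and 54.4 in clone 22, 107, 106 and 96.0 in clone 17, and 114, 116 and 104 in clone 42, and all 4 clones overlapped. Col15a1, its close relative, was low and uneven. Its group means were 1.22 ± 0.780 TPM in 1151 knockout-labelled cells, 0.169 ± 0.200 in re-expressing cells, 4.20 ± 1.94 in clone 15, 0.722 ± 0.548 in clone 22, 0.486 ± 0.135 in clone 17 and 2.05 ± 1.76 in clone 42 (SD, n = 3).

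Col7a1, the anchoring fibril collagen, stood above its 2838 levels in every library of line 1151, at 23.3, 18.6 and 19.4 TPM labelled knockout and 4.78, 2.90 and 6.35 TPM re-expressing. All 3 knockout-labelled libraries lay above all 3 others. In the 12 libraries of line 2838 it ran from 0.0656 to 1.75 TPM. This contrast between lines was not tested, since line and batch cannot be told apart.

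Among fibrillar genes, Col5a1, a chain of the minor collagen that seeds and limits fibrils, was 1.45, 1.98 and 2.38 TPM in 1151 knockout-labelled cells and 0.143, 0.0670 and 0.0680 in re-expressing cells. In 2838 it was 6.34, 5.27 and 6.42 TPM in clone 15, 4.55, 3.62 and 2.19 in clone 22, 1.61, 0.972 and 1.23 in clone 17, and 1.21, 1.58 and 1.40 in clone 42. The labelled arms did not overlap in either line, and their order was opposite: knockout-labelled cells were high in 1151 and low in 2838. Col5a2 and Col5a3, the chains with which Col5a1 assembles, reached at most 0.0325 and 0.0985 TPM. Col27a1, a fibrillar collagen best known from cartilage, was 12.8, 17.5 and 13.1 TPM in 1151 knockout-labelled cells and 5.46, 5.96 and 5.92 in re-expressing cells. In 2838 it was 6.81, 8.48 and 8.31 TPM in clone 15, 6.78, 6.89 and 4.04 in clone 22, 3.60, 3.24 and 3.91 in clone 17, and 3.77, 4.78 and 4.47 in clone 42. It too was higher in the knockout-labelled arm of 1151, while in 2838 the knockout-labelled clones overlapped the wild-type arm only through replicate 3 of clone 22, at 4.04 TPM.

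**Figure D2:**
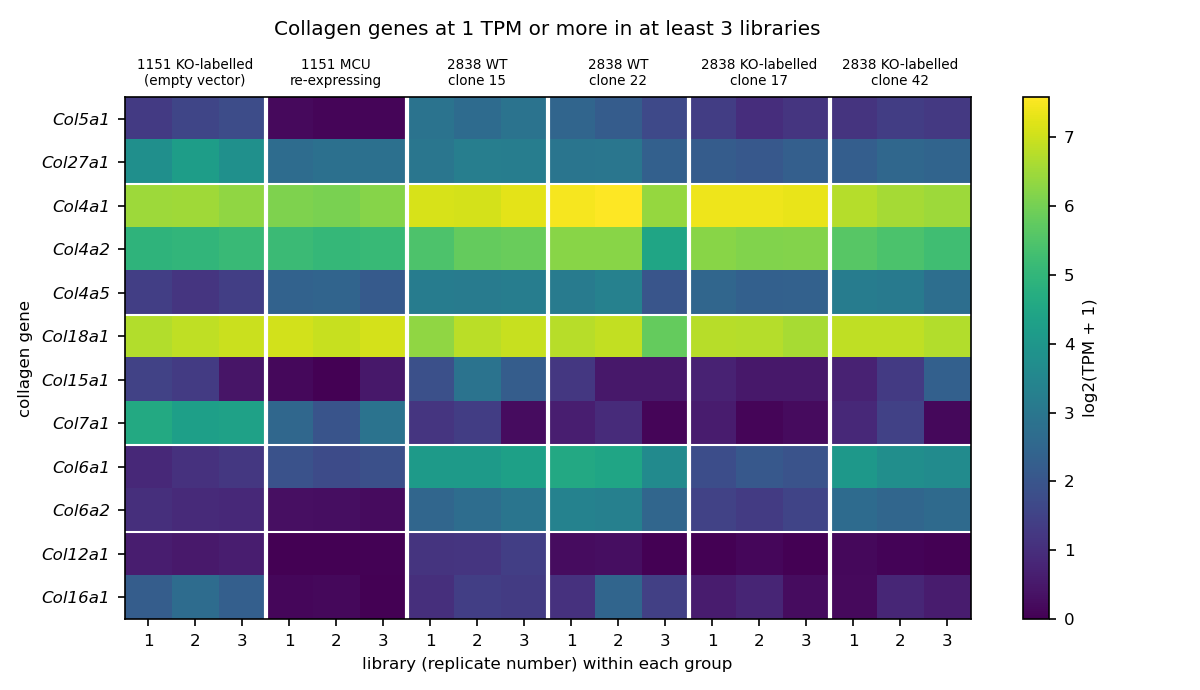
The 12 collagen genes at 1 TPM or more in at least 3 libraries (rows, grouped by class with white lines) in each of the 18 libraries (columns), coloured by log2(TPM + 1). Col4a1, Col4a2 and Col18a1 are bright in all groups, Col7a1 stands out in line 1151, and Col6a1 and Col6a2 are bright in clones 15, 22 and 42 of line 2838 and dim in clone 17.

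The promoter sequences of Col5a1, Col27a1 and Col7a1 are shown because these 3 genes showed the largest rises in 1151 knockout-labelled cells among collagens whose mean reached 5 TPM in some group. Each is the 250 bases before the RefSeq start, 5′ to 3′ on the plus strand (RefSeq promoter table, GRCm38.p6), at chr2:27886175-27886424 for Col5a1, chr4:63215162-63215411 for Col27a1 and chr9:108953336-108953585 for Col7a1. None overlaps an annotated exon in GENCODE M21, although the GENCODE gene model of Col27a1 starts further upstream, at 63214004. Capitals mark matches on either strand to the GC box GGGCGG and the CCAAT box.
Col5a1: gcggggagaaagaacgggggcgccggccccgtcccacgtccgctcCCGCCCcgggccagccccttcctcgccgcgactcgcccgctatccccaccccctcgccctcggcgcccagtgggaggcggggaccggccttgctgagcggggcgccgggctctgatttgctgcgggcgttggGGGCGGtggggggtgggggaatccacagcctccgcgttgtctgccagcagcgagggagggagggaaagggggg
Col27a1: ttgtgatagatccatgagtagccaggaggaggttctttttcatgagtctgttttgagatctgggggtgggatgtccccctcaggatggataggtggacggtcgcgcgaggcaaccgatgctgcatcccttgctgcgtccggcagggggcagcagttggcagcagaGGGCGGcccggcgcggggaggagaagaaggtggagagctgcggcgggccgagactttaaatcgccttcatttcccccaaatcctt
Col7a1: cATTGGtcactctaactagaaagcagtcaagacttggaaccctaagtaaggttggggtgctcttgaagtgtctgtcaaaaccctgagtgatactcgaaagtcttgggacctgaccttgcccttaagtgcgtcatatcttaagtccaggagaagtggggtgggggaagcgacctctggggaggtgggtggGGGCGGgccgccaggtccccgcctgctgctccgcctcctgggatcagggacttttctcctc
The Col5a1 window held 28 CpG sites and 2 GC boxes in the 250 bases before the start, that of Col27a1 15 CpG sites and 1 GC box, and that of Col7a1 7 CpG sites, 1 GC box and 1 CCAAT box. None of the 3 held the TATA box TATAAA. RefSeq windows matched 35 of the 44 collagen genes. In those 250 bases, on both strands, TATAAA was in 0 of 13 windows of 11 genes that reached the level, in 5 of 25 windows of 24 genes that did not, and in 12.4% of 32851 windows of all genes. GGGCGG was in 9 of 13, 13 of 25 and 32.7%, and CCAAT in 6 of 13, 7 of 25 and 33.8%. The median number of CpG sites was 12, 8 and 6. The windows of Col4a1 and Col4a2 lie on either side of their 22 shared bases and share none with each other. Among genes that reached the level, Col18a1 and Col6a2 have 2 windows each, and those of Col6a2 overlap. Col9a1, which did not reach it, also has 2 windows. A match describes the letters only.

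Type VI collagen is built from Col6a1, Col6a2 and a longer chain such as Col6a3. Col6a1 was 0.841, 1.11 and 1.34 TPM in 1151 knockout-labelled cells and 2.76, 2.35 and 2.63 in re-expressing cells, with no overlap. In 2838 it was 16.4, 16.7 and 18.8 TPM in clone 15, 22.8, 20.8 and 11.3 in clone 22, 2.47, 3.25 and 2.86 in clone 17, and 15.4, 12.3 and 11.6 in clone 42, so clone 17 stood alone at the bottom. Col6a2 is its neighbour on chromosome 10, with 85161 bases between the gene models. Col6a2 was 1.02, 0.870 and 0.836 TPM in 1151 knockout-labelled cells and 0.237, 0.208 and 0.166 in re-expressing cells, the opposite order to Col6a1. It was 4.72, 5.60 and 6.70 TPM in clone 15, 9.19, 8.86 and 4.67 in clone 22, 1.80, 1.48 and 1.94 in clone 17, and 5.34, 4.72 and 5.15 in clone 42, again lowest in clone 17. The ratio of Col6a1 to Col6a2 TPM was 11.3 to 15.9 in 1151 re-expressing libraries, 0.821 to 1.61 in knockout-labelled ones and 1.37 to 3.47 in the 12 libraries of line 2838. Col6a3 reached at most 0.145 TPM, and Col6a4, Col6a5 and Col6a6 at most 0.0221 TPM.

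Col16a1, a fibril-associated collagen, was 3.72, 5.35 and 3.95 TPM in 1151 knockout-labelled cells, and 0.0962, 0.122 and listed at 0 in re-expressing cells. In 2838 it was 1.02, 1.63 and 1.50 TPM in clone 15, 1.11, 4.59 and 1.72 in clone 22, 0.501, 0.737 and 0.194 in clone 17, and 0.142, 0.756 and 0.497 in clone 42. As for Col5a1, the knockout-labelled arm was entirely above in 1151 and entirely below in 2838. Col12a1, which links fibrils to their surroundings, averaged 1.38 ± 0.240 TPM in clone 15, 0.494 ± 0.0530 in 1151 knockout-labelled cells and at most 0.146 in the other 4 groups (SD, n = 3).

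**Figure D3:**
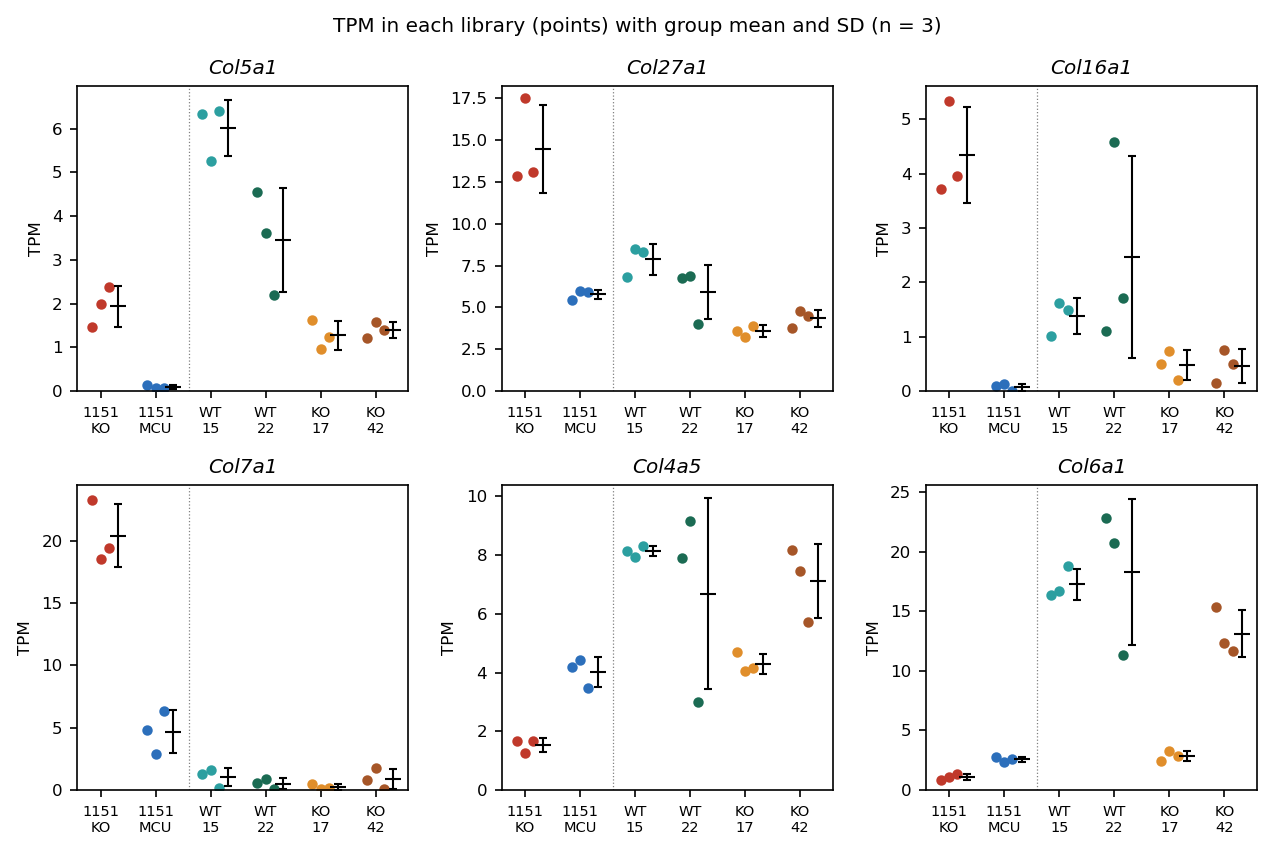
TPM (y axes, each from 0) of 6 collagen genes in each library (points) with the group mean and SD (n = 3), groups along the x axis. Col5a1 and Col16a1 are higher in the knockout-labelled group of 1151 and lower in knockout-labelled clones 17 and 42 of 2838, and Col6a1 is low in clone 17, at 2.47 to 3.25 TPM.

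In line 1151, Col16a1, Col7a1, Col5a1, Col27a1 and Col4a1 were higher in the cells labelled knockout, and Col4a5 and Col6a1 were lower. Differences are knockout-labelled minus re-expressing on the log2(TPM + 1) scale, where low genes appear to change less than they do, tested with limma and Benjamini-Hochberg adjustment over 11630 genes at 1 TPM or more in at least 3 of the 6 libraries, and called at an adjusted p under 0.05. Of the 9 collagens tested, 5 were called higher and 2 lower (3 and 2 of the 7 with libraries at 1 TPM or more in both groups), where 61.0% of all genes tested were called, 34.0% higher and 27.0% lower. So large a share of all genes changed that the collagens' count is read as a description of these genes only. The median difference of the 9 was 0.30, against 0.05 over all genes tested. That median includes Col16a1 and Col5a1, which in this line reached 1 TPM only in knockout-labelled libraries. Among the 7 with libraries at 1 TPM or more in both groups, the middle difference was that of Col4a2, at -0.09. The differences were 2.30 for Col16a1 (SE 0.14, adjusted p = 2.055e-05), 1.96 for Col7a1 (SE 0.23, adjusted p = 0.000326), 1.42 for Col5a1 (SE 0.15, adjusted p = 0.000201), 1.18 for Col27a1 (SE 0.13, adjusted p = 0.000222) and 0.30 for Col4a1 (SE 0.07, adjusted p = 0.00887), all by limma. Col4a5 fell by 0.99 (SE 0.12, adjusted p = 0.000484) and Col6a1 fell by 0.78 (SE 0.13, adjusted p = 0.00164). All 7 had groups that did not overlap, as did 67.2% of all genes tested. Col18a1 (-0.20, SE 0.08, adjusted p = 0.0683) and Col4a2 (-0.09, SE 0.07, adjusted p = 0.297) did not pass by limma.

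Col5a1 and Col16a1 reached the level for testing only through the knockout-labelled libraries, so a difference was built into their passing, and both dropped out of the test when any 1 of those 3 libraries was left out. Calls then numbered 5 without knockout-labelled replicate 1 (55.8% of all genes called) or 2 (52.9%) and 6 without replicate 3 (62.4%). They stayed at 7 without any 1 re-expressing library, where 53.5% to 54.6% of all genes were called. With no filter on low values, 13 of 37 collagens were called, where 38.8% of all genes were. The 6 added were Col1a1 (difference 0.60), Col6a2 (0.67), Col8a1 (0.83), Col11a1 (0.68) and Col12a1 (0.56), all higher, and Col26a1 (-0.34), lower, and apart from Col6a2, at 1.02 TPM in 1 library, none of these 6 reached 1 TPM in a library of this line. When the spread between 2838 clones was used in place of the spread between 1151 libraries, 0 of 12 collagens were called, against 2.15% of all genes. That fit tested the 12458 genes at 1 TPM or more in at least 3 of the 18 libraries. Genes of chromosome 8, which holds Col4a1 and Col4a2, had a median difference of -0.28 in this line, and those of chromosome 10, which holds Col6a1, Col6a2 and Col18a1, one of 0.34. Centred on its chromosome, Col4a2 changed sign to 0.21 and was called higher. Col18a1 was called lower under that centring (-0.59), under median-of-ratios (-0.27) and quantile (-0.24) scaling, and without knockout-labelled replicate 3 (-0.26). The summed level of the 5 chondrocyte markers was 32.5 to 35.1 TPM in knockout-labelled and 16.9 to 17.9 TPM in re-expressing libraries, from Sox9 and Acan, with Matn1 and Cnmd listed at 0. The 5 endothelial markers summed to 8.32 to 8.77 and 5.60 to 6.10 TPM, mainly Kdr in the former and Cdh5 in the latter, with Emcn listed at 0 and Pecam1 and Tek below 1 TPM. The part of either list in these collagen differences was not tested. The 10 fibroblast markers summed to 0.245 to 0.608 and 0.180 to 0.619 TPM.

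**Figure D4:**
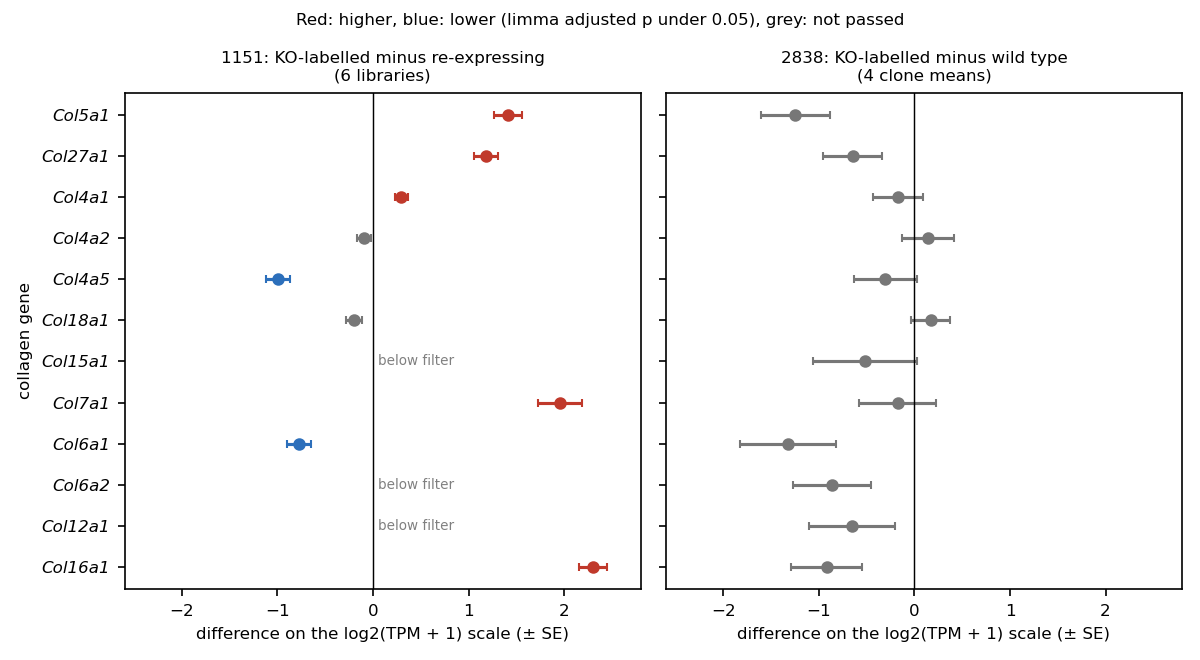
Difference (x axis, log2(TPM + 1) scale, bars are ± SE) of the 12 collagen genes (y axis) between knockout-labelled and re-expressing libraries of 1151 (left) and between knockout-labelled and wild-type clone means of 2838 (right). In 1151, 5 genes are called higher and 2 lower; in 2838 none is called, and Col5a1 sits at -1.24.

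In line 2838, Col5a1 was lower in both clones labelled knockout than in both labelled wild type, while no collagen passed the test over clone means. That test compared 2 clone means with 2 on the same scale. It called 0 of 12 collagens, where 0.0763% of 11795 genes were called. At an unadjusted limma p under 0.05, 3 of 12 collagens passed, all lower, as against 5.61% of all genes. They were Col5a1 (-1.24, SE 0.36, adjusted p = 0.563), Col6a1 (-1.33, SE 0.50, adjusted p = 0.765) and Col16a1 (-0.92, SE 0.37, adjusted p = 0.807). The median difference of the 12 was -0.58, against 0.07 over all genes tested. Col12a1 and Col16a1 passed the filter only through wild-type libraries, so a lower value was built in for them. Without them the middle differences were -0.52 for Col15a1 and -0.30 for Col4a5. Col5a1 and Col6a1 were then the collagens left at an unadjusted limma p under 0.05. The other 8 that did not pass at an unadjusted p, besides Col12a1 at -0.65, ran from -0.86 for Col6a2 to 0.17 for Col18a1. Without replicate 3 of clone 22 the values were -1.36 for Col5a1, -1.47 for Col6a1 and -0.97 for Col16a1, and Col4a2 went from 0.14 to -0.16. In that fit 0 collagens were called, where 0 of all 11767 genes tested were called. Without clone 42, 2 collagens were called lower, Col6a1 at -2.26 and Col6a2 at -1.44, where 2.30% of all genes were called.

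When both clones labelled knockout had to differ from both labelled wild type (4 pairs) in one direction over the 12 libraries, Col5a1 was the 1 collagen called, lower, where 0.517% of all genes were called lower. Its differences by limma were -1.63 (SE 0.22, adjusted p = 0.000825) for clone 17 minus 15, -0.94 (adjusted p = 0.0256) for 17 minus 22, -1.55 (adjusted p = 0.000787) for 42 minus 15 and -0.86 (adjusted p = 0.0277) for 42 minus 22. That call was lost without replicate 1 or 2 of clone 22, without any 1 library of clone 17 and without any 1 library of clone 42. Without replicate 3 of clone 22 the calls were Col5a1, Col27a1 and Col6a1, where 2.41% of all genes were called lower, and without any 1 library of clone 15 Col5a1 alone. Col5a1 and Col16a1 were the 2 collagens whose knockout-labelled libraries all lay below all wild-type ones, as did 1.52% of all genes tested. Whether libraries of a clone or group were separate cultures is not labelled, and library-level p-values may reflect technical spread alone.

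Between the clones labelled knockout, Col6a1 was 1.87 higher (SE 0.23, adjusted p = 0.000325 by limma) and Col6a2 1.15 higher (SE 0.23, adjusted p = 0.00564) in clone 42 than in clone 17, 2 of 12 collagens where 17.2% of all genes were called, 8.23% higher. Col4a1 was -0.78 in the same comparison (SE 0.25, adjusted p = 0.0529). Of the chondrocyte markers, Acan was also 1.27 higher (adjusted p = 0.0059 by limma) and Sox9 0.80 higher (adjusted p = 0.0499) in clone 42. Of the other markers listed, Matn1 and Cnmd were at 0, and Comp averaged 0.101 TPM in clone 42 and 0.0550 in clone 17. The list summed to 49.3 to 77.8 TPM in clone 42 and 25.8 to 27.5 TPM in clone 17, and its part in the Col6a1 and Col6a2 differences was not tested. Between the clones labelled wild type, Col12a1 was 1 of 12 collagens called, at -1.05 for clone 22 minus 15 (SE 0.16, adjusted p = 0.00716 by limma), where 1.92% of all genes were, 1.34% lower. Col12a1 passed the filter only through the 3 libraries of clone 15, so this value is a description, and without any 1 of them it was not tested and 0 were called. Without replicate 3 of clone 22 the calls numbered 4 between clones 22 and 15, where 6.86% of all genes were called, and 5 between 42 and 17, where 41.5% were. Without replicate 3 of clone 42 they numbered 2 between 22 and 15, where 1.18% of all genes were called.

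The difference between the lines, the 1151 effect minus the 2838 effect, was tested with limma on the 6 group means. It called 0 of 12 collagens, where 1.10% of 12458 genes were called and 14.0% had an unadjusted p under 0.05. It was 3.22 for Col16a1 (SE 0.34, adjusted p = 0.0549), 2.66 for Col5a1 (SE 0.49, adjusted p = 0.145), 2.13 for Col7a1 (SE 0.47, adjusted p = 0.196) and 1.83 for Col27a1 (SE 0.42, adjusted p = 0.207). Col16a1 was called without replicate 1 of clone 15 (3.28) or replicate 2 of clone 22 (3.02). Its spread came from the 2838 clones alone, and lines and batches cannot be told apart.

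Of 62 genes listed for collagen folding, export, processing, cross-linking, binding and breakdown, 36 could be tested in 1151, where limma called 22 higher and 7 lower with the knockout label, against the 34.0% and 27.0% of all genes given above. Fkbp10, P3h3 and Loxl3 passed the filter on low values only through the knockout-labelled libraries, so a difference was built in for them, and without them 19 of 33 were higher and 7 lower. The median difference of all 36 was 0.51, against 0.05 over all genes. Among the 33 the middle difference was that of the receptor gene Ddr1, at 0.43. Of 17 folding and hydroxylation genes, 10 were higher, Fkbp10 and P3h3 among them, and 5 lower. The lower ones were P3h1 (-0.55), Ppib (-0.55), Serpinh1 (-0.38), Colgalt1 (-0.33) and P4hb (-0.24). Fkbp10, a chaperone and prolyl isomerase of procollagen, was 19.1, 20.8 and 22.5 TPM labelled knockout and 0.173, 0.282 and 0.272 TPM re-expressing, a difference of 4.13 (SE 0.10, adjusted p = 3.92e-07), and between 46.3 and 64.0 TPM in all 12 libraries of 2838. P3h2, which hydroxylates proline at the 3 position in type IV collagen, rose by 1.58, and P4ha3, a catalytic subunit of prolyl 4-hydroxylase, by 1.33. Sparc, a collagen-binding matrix protein and 1 of 4 export genes, rose by 1.07, from 70.0 ± 1.88 to 148 ± 3.92 TPM (SD, n = 3), and the other 3 did not pass. Of 3 processing genes 2 were higher, Bmp1 (0.78), the procollagen C-proteinase, and Pcolce (0.77), its enhancer.

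Of 5 cross-linking genes 3 were higher, the lysyl oxidase relatives Loxl3 (1.92), Loxl4 (0.58) and Loxl2 (0.56), and 1, Tgm2, was lower, while Lox and Loxl1 did not reach the level for testing. Loxl3 passed the filter only through knockout-labelled libraries, so a difference was built in for it. Of 4 receptor genes 3 were higher and 1 lower. The 2 integrin chains that bind collagen moved oppositely, Itga2 rising by 1.50 (22.7 ± 0.382 to 66.0 ± 4.33 TPM) and Itga1 falling by 1.14 (20.7 ± 0.839 to 8.83 ± 0.276 TPM; SD, n = 3), and the receptor kinase Ddr1 rose by 0.43. All 3 protease genes tested were higher, Ctsl (1.33), a lysosomal cathepsin, Mmp13 (1.29), a collagenase, and Mmp14 (0.36), a membrane-bound one. None of the 8 fibril-binding proteoglycan genes reached the level. In 2838, 0 of 35 pathway genes were called over clone means, where 0.0763% of all genes were called. Of the 35, 1 was lower in all 4 clone pairs, where 0.517% of all genes were called lower. That gene was Crtap, the cartilage-associated partner of prolyl 3-hydroxylase, at 67.4 ± 8.03 TPM in clone 15, 71.6 ± 21.7 in clone 22, 41.5 ± 1.57 in clone 17 and 28.2 ± 1.94 in clone 42 (SD, n = 3).

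**Figure D5:**
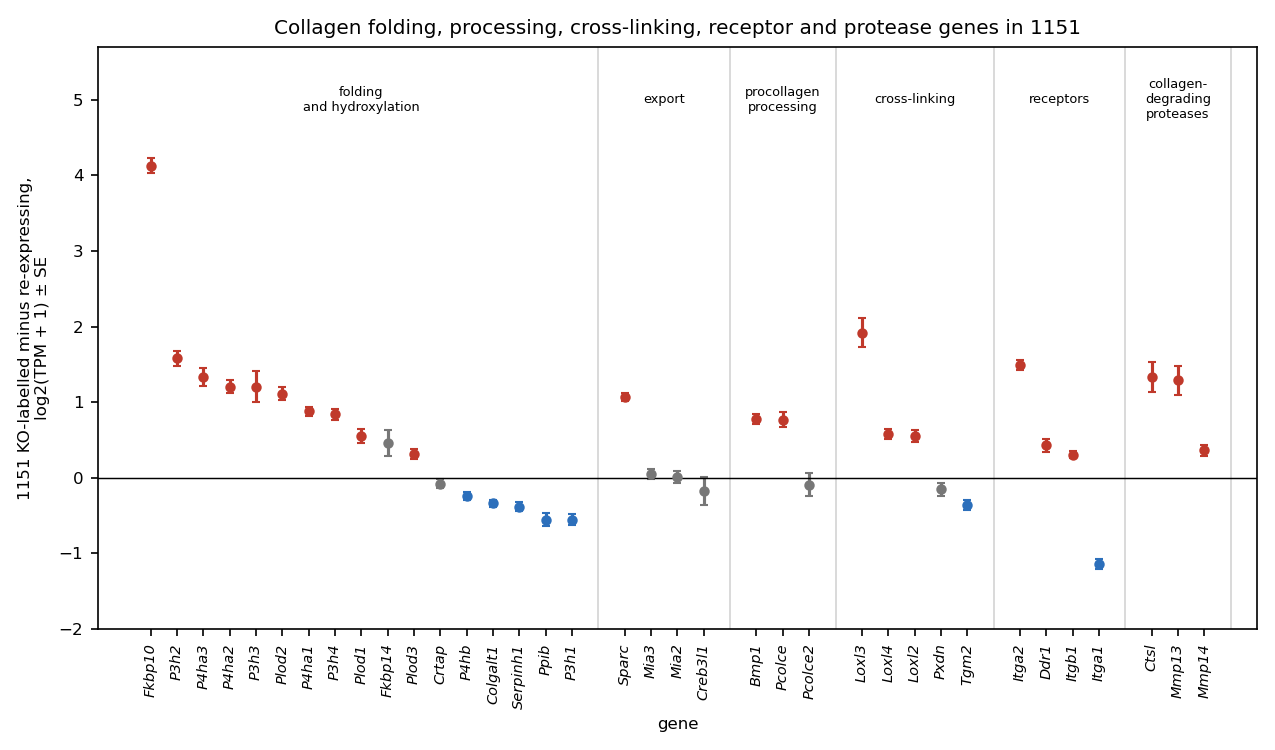
Difference between knockout-labelled and re-expressing libraries of 1151 (y axis, log2(TPM + 1) scale, bars are ± SE) for the 36 tested genes of collagen folding, export, processing, cross-linking, binding and breakdown (x axis, grouped by role). Red points are called higher (22 genes), blue lower (7) and grey did not pass. Fkbp10 is highest at 4.13. Fkbp10, P3h3 and Loxl3 passed the filter only through knockout-labelled libraries.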

How the data were processed

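RNA of 18 libraries was measured as TPM per gene symbol. The authors deposited 1 table of TPM; the submitters' processing notes name Salmon, DESeq2 and mm10, and their versions and the annotation are not given in the sources used here. TPM holds no depth, so intervals for counting error could not be had. Here log2(TPM + 1) was modelled in limma 3.58.1 (trend, R 4.3.3), Benjamini-Hochberg adjusted over all genes at 1 TPM or more in at least 3 libraries of a fit, and called at an adjusted p under 0.05. Line 1151 was fitted over 6 libraries, line 2838 over 4 clone means and over 12 libraries, and the difference between lines over 6 group means. Fits were tested on simulated data. Groups came from the labels; 0 libraries held identical values.

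The collagen genes, their classes, the pathway and marker lists and the tests were chosen with earlier results of these data known. Collagens with a group mean of at least 5 TPM were given per library, others by means or range. Pathway genes named were up to 3 called per role with a group mean of at least 5 TPM. Tgm2, Lox, Loxl1, the 5 lower folding genes and the per-library detail of Col12a1, Col15a1 and Col16a1 were added after their values were seen. Positions came from GENCODE M21, matched for 95.4% of symbols, and promoters from the RefSeq table of GRCm38. Reads of overlapping first exons of Col4a1 and Col4a2 cannot be told apart without strand. Alternatives were pseudocount 0.1, no filter, a minimum mean of 5 TPM, median-of-ratios and quantile scaling, centring per chromosome, no trend, the replicate number as a block, other replicate units, and each library or clone left out; leaving out libraries in the comparisons of clones of one label was added after seeing the data. Python 3.11.15 with pandas 2.3.3, numpy 2.4.6 and matplotlib 3.10.9 was used for tables and plots.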

Additional observations from a re-analysis of the deposited data

Results flagged for a closer look

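Col16a1 was higher in every knockout-labelled library of line 1151 than in every re-expressing one, and lower in every knockout-labelled library of line 2838 than in every wild-type one. The difference between the 2 effects was 3.22 on the log2(TPM + 1) scale (limma on 6 group means, adjusted p = 0.0549), and it rests on values at or below 5.35 TPM. Col5a1 showed the same opposite order, with a difference of 2.66 (adjusted p = 0.145). Neither passed the test of the difference. Both genes met the filter in 1151 only through knockout-labelled libraries, and Col16a1 met it in 2838 only through wild-type ones. Line and batch cannot be told apart.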

How the results depend on the processing

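The number of collagens that reached the level was 12, and 14 at 0.5 TPM, 11 at 2 TPM, 12 in any 1 library and 11 in at least 6 libraries. Of all genes in 1151, 61.0% were called, 38.8% with no filter and 62.3% at a mean of at least 5 TPM. The 3 scaling settings called 57.8% to 61.3% of them, and 1 library left out 52.9% to 62.4%. In 1151, 7 collagens were called. The number was 13 with no filter, 3 at a mean of at least 5 TPM, 0 with the spread between 2838 clones, and 5 to 7 with 1 library left out; the 3 scaling settings gave 8, 8 and 9. In 2838, 0 were called over clone means, 1 with libraries as replicates (3.65% of all genes) and 2 without clone 42. The difference between lines gave 0, but 1 with a pseudocount of 0.1, 3 with no filter, 1 centred per chromosome, 7 with all 18 libraries as replicates, and 0 to 1 with 1 library left out. Of all genes, 1.10% were called in that comparison, 0.995% with a pseudocount of 0.1, 5.88% with no filter, 2.51% centred and 33.6% with all libraries as replicates. With 1 library left out the share was 0.0326% to 1.27%. The all-pairs count of 1 (0.517% of all genes called lower) became 0 at a mean of at least 5 TPM (0.344%). It became 2 under median-of-ratios (0.958%) or quantile (1.03%) scaling, 3 centred per chromosome (1.02%), and 0 to 3 with 1 library left out (0.289% to 2.41%). Clone 22 minus 15 gave 1 (1.92% of all genes). It gave 0 with a pseudocount of 0.1 (1.23%), at a mean of at least 5 TPM (0.916%) or centred per chromosome (1.97%). No filter (1.62%) or quantile scaling (2.56%) gave 2, and 1 library left out gave 0 to 4 (0.726% to 6.86%). Clone 42 minus 17 gave 2 (17.2% of all genes). It gave 4 under median-of-ratios scaling (21.7%), quantile scaling (25.1%) or chromosome centring (14.7%), and 2 to 5 with 1 library left out (9.88% to 41.5%). The higher mean filter tests fewer genes; the other causes were not tested.

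Signs changed for genes that were not called. Col4a2 in 1151 went to 0.21 centred per chromosome. In 2838, Col15a1 went to 0.27 without clone 15, Col4a2 to -0.24 and Col7a1 to 0.090 without clone 17, Col4a1 to 0.22 without clone 42, and Col18a1 to -0.0015 and Col4a2 to -0.16 without clone 22 replicate 3 (range of Col4a2 -0.16 to 0.29 with 1 library left out). In the difference between lines, Col4a2 went to 0.12 centred per chromosome, 0.15 without clone 17 and 0.066 without clone 22 replicate 3 (range -0.38 to 0.066 with 1 library left out), and Col6a1 to -0.38 without clone 17.

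Replicate numbers did not pair the libraries. Deviations of same-numbered libraries correlated at -0.146 to -0.027 in 1151 (0 of 3 pairs over 0.1, 0 best with their own number) and at -0.152 to 0.190 in 2838 (4 of 18 over 0.1, 7 best with their own number). With the replicate number as a block, 7 collagens were called in 1151, where 57.4% of all genes were. In all clone pairs 1 was called, where 0.449% of all genes were called lower. Both counts were the same without the block. Read depth is unknown, so values under 1 TPM have no stated counting error.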
